A study of Mus musculus with 4 samples.

Results

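Imprinted growth regulators are genes that are read from only 1 parental copy in most tissues and that adjust how much fetal and regenerating tissue grows. Paternally expressed members such as Dlk1, Peg3 and Mest are mostly linked with growth or with the upkeep of progenitor cells. Maternally expressed members such as H19, Cdkn1c and Grb10 mostly restrain it. Many of them are high before birth, fall in adult tissue and are known to return in regenerating skeletal muscle. The 10 genes H19, Dlk1, Meg3, Peg3, Cdkn1c, Mest, Plagl1, Grb10, Ndn and Zim1 were taken by their gene symbols, and 9 of them had a value, out of 11842 named genes with a value on all 4 arrays. Zim1, a zinc finger gene beside Peg3, had 1 probe and no value on any array.

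The genes were measured in host tissue cut by laser from around porous polyethylene scaffolds that had been under the dorsal skin of male C57BL/6 mice, 8 weeks of age, for 7 days. The scaffolds were coated with collagen, coated with PMB, a phosphorylcholine polymer that repels cells and that the sample titles call MPC, or left without a coat as the reference. Each kind of scaffold was sampled from 1 mouse, without a statement on whether the scaffolds sat in separate mice, and the cut tissue held mixed cell types. Each coating was hybridized with the non-coated extract on 2 arrays with the dyes exchanged, so the 2 arrays share the same RNA and count as 1 replicate. Ratios are given on the log2 scale with the non-coated scaffold as denominator, unless the PMB-coated one is named in its place. The ± sign stands for the SD over both arrays of a coating, which covers the labelling and the hybridization but not mice. For collagen over PMB it is the SD of 2 differences, each taken within 1 dye orientation. A dye effect shared by both coatings cancels in them, so this SD can be smaller than those of the coatings. No test between scaffolds was therefore possible and no p-value is given. A gene was called higher or lower when its mean was at least 1 in size, which is 2-fold, with the same sign on both arrays. Both coatings are set against the same non-coated extract, and in such mixed tissue fewer cells of a type and less RNA per cell cannot be told apart.

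Of the 9 measured genes, 2 were called lower at the collagen-coated scaffold, Dlk1 and H19, where 3.38% of all genes were. At the PMB-coated scaffold 1 gene was called lower, H19, where 1.40% of all genes were. None of the 9 was called higher with collagen or PMB, calls that 2.21% and 0.616% of all genes reached. For collagen over PMB, Dlk1 alone was called lower and no member higher, against 3.67% and 2.74% of all genes. The members had a median of -0.18 for collagen and -0.46 for PMB, where the median of all genes was 0.036 and 0.022. Without Dlk1 and H19 the members' medians were -0.18 for collagen and -0.20 for PMB. These genes were left out for their low values, so a median could not fall and its rise with PMB shows nothing further. Peg3, Mest and Cdkn1c, at -0.48, -0.46 and -0.46 with PMB, stayed in. With so few members these counts describe the genes and say nothing of imprinted genes as a class.

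The H19 transcript carries the hairpin of miR-675, and its neighbour Igf2, which encodes insulin-like growth factor 2, carries that of miR-483. These miRNAs are shown because both host genes were low at both coated scaffolds. Levels of the mature miRNAs were not analysed here. The sequences are from RefSeq, build GRCm38.p6, minus strand, 5′ to 3′, with the seed (bases 2 to 8) in capitals. Mature miR-675-5p lies at chr7:142577112-142577133, miR-675-3p at chr7:142577078-142577099, miR-483-5p at chr7:142654968-142654989 and miR-483-3p at chr7:142654932-142654952. The 4 miRNAs have 4 different seeds.
miR-675-5p: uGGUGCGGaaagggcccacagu
miR-675-3p: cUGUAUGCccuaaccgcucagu
miR-483-5p: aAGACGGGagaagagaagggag
miR-483-3p: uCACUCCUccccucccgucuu

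Dlk1 was the member with the largest difference. It encodes a membrane protein with epidermal growth factor repeats, also called preadipocyte factor 1, that keeps fat precursors undifferentiated and that is made by fetal and regenerating muscle. Its ratios were -2.22 and -2.43 on the collagen arrays, against -0.77 and -0.68 on the PMB arrays. All 4 values were below 0. The mean with collagen was -2.33 ± 0.15, which is 5.01-fold lower than at the non-coated scaffold, and 0.667% of all genes lay at or below it. With PMB the mean was -0.72 ± 0.064, or 1.65-fold lower, which did not reach 2-fold. Dlk1 was 3.04-fold lower with collagen than with PMB, at -1.60 ± 0.21 on the log2 scale. At or below that difference lay 1.21% of all genes. Its 2 probes gave -2.17 ± 0.038 and -2.48 ± 0.25 with collagen and -0.60 ± 0.062 and -0.85 ± 0.066 with PMB, so each probe showed the same order.

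H19, a maternally expressed non-coding RNA that is abundant in fetal muscle and is known to restrain growth, was low with both coatings. Its ratios were -1.16 and -1.13 on the collagen arrays, against -1.47 and -1.51 on the PMB arrays. The 4 arrays lay close together. The mean was -1.15 ± 0.023 with collagen, 2.21-fold lower than without a coat, and -1.49 ± 0.029 with PMB, 2.81-fold lower. Of all genes, 0.701% lay at or below the PMB value. H19 had thus the opposite order of Dlk1, and its difference of collagen over PMB was 0.34 ± 0.053, under 2-fold. At or below that difference lay 79.7% of all genes. The 2 probes of H19 stood further apart than the arrays did. With collagen they gave -0.88 ± 0.083 and -1.41 ± 0.036, so the first did not reach 2-fold by itself, and with PMB they gave -1.26 ± 0.0085 and -1.72 ± 0.050.

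**Figure D1:**
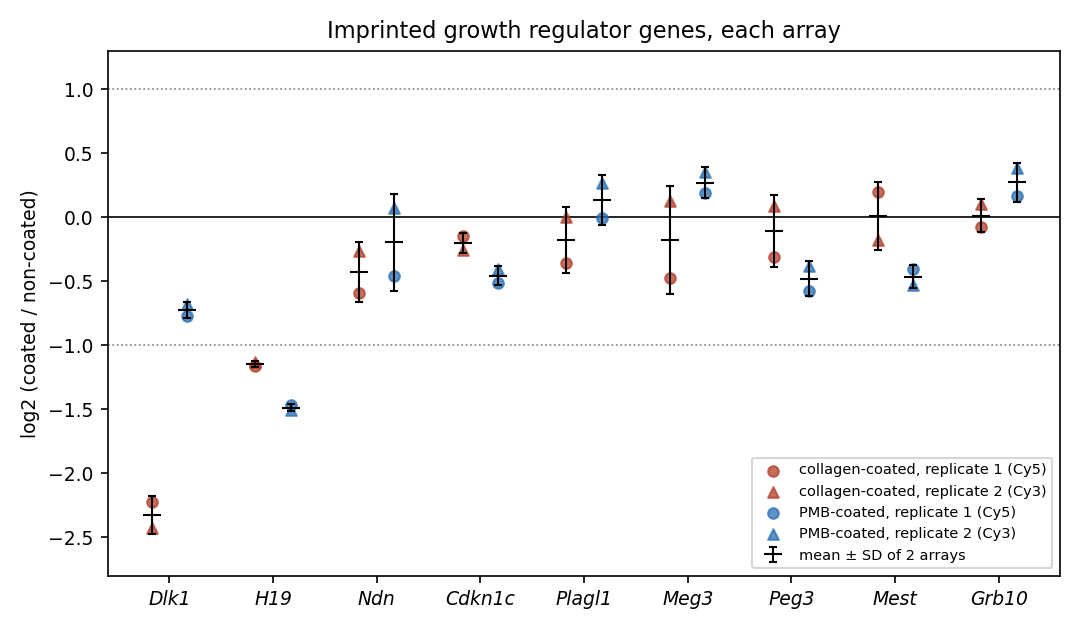
Log2 ratio of coated over non-coated scaffold (vertical axis) on each of the 4 arrays for the 9 measured genes, ordered by the collagen mean; circles are replicate 1 with the coated sample in Cy5, triangles replicate 2 with it in Cy3, and black marks are mean ± SD of 2 arrays. Dlk1 lies at -2.33 with collagen and -0.72 with PMB, H19 at -1.15 and -1.49, and the other 7 genes stay between the dotted lines at 2-fold.

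**Figure D2:**
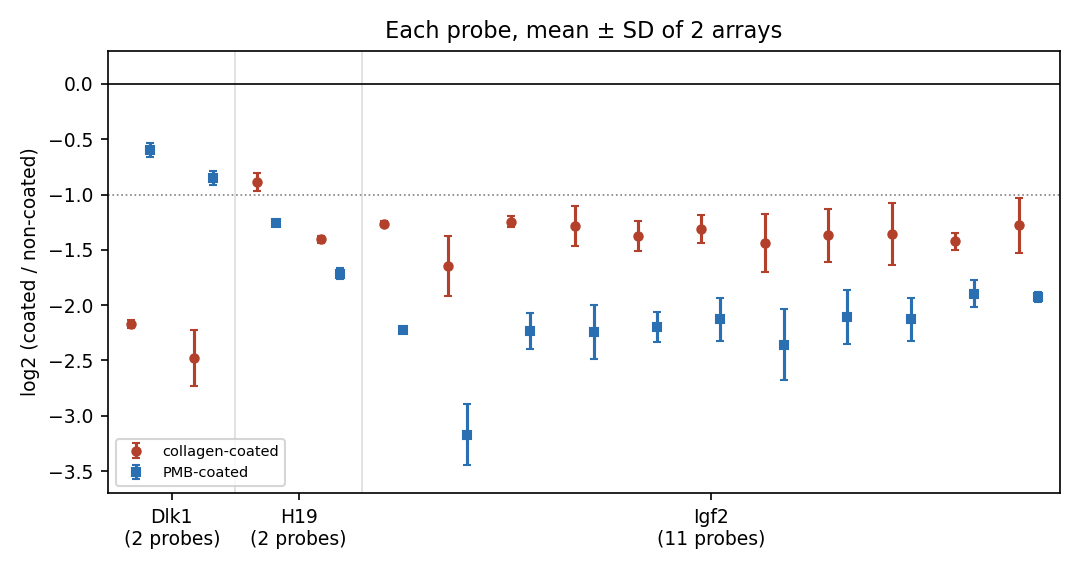
Log2 ratio of coated over non-coated (vertical axis) for every probe of Dlk1, H19 and Igf2 with a value on all 4 arrays; circles are collagen, squares PMB, and bars the SD of 2 arrays. Collagen lies below PMB at both probes of Dlk1 and above PMB at both probes of H19 and all 11 of Igf2.

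The medians of both muscle gene lists were below 0 with both coatings, as were the ratios of Dlk1 and H19. Mature skeletal muscle genes were called lower in 21 of 21 cases with collagen and in 19 of 21 with PMB, with medians of -2.89 and -1.91. Genes of regenerating muscle were called lower in 3 of 11 cases with collagen and in 9 of 11 with PMB, with medians of -0.53 and -2.01. By its median the mature list was lower with collagen, as Dlk1 was, and the regenerating list lower with PMB, as H19 was, but the genes of a list were not uniform. For collagen over PMB, 11 of 21 mature genes were called lower and none higher, with a median of -1.09. In the same comparison 7 of 11 regenerating genes were called higher and 1 lower, with a median of 1.40, opposite in direction to Dlk1. The mature gene Cacng1 had -1.69 with collagen, against -2.41 with PMB, and the regenerating gene Myh8 had -2.82 with collagen, against -1.82 with PMB, both opposite to their list's median and named after their values were seen. Of 17 adipocyte genes, 4 were lower with collagen and 9 higher with PMB, with medians of -0.54 and 1.04. For collagen over PMB 11 of them were lower and none higher, with a median of -1.76. Of 13 fibroblast genes, 1 was lower with collagen and 1 higher with PMB, with medians of -0.32 and 0.23. For collagen over PMB 4 of them were lower and none higher, with a median of -0.43. Of 5 peripheral nerve genes, 3 were lower with collagen and none was called with PMB, with medians of -1.35 and 0.46. For collagen over PMB 3 of them were lower and none higher, with a median of -1.81. The part of the muscle, adipocyte, fibroblast and nerve genes in the values of Dlk1, H19 and the other members was not tested. The files hold ratios and no levels, so which cells carried the signal was not measured.

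The other 7 measured members lay between -0.43 and 0.012 with collagen and between -0.48 and 0.27 with PMB. For comparison, the 5th and 95th percentiles of all genes were -0.78 and 0.66 for collagen, against -0.56 and 0.56 for PMB, and all 7 lay inside these limits with both coatings. With PMB, Peg3, Mest and Cdkn1c lay near the lower limit, with 6.77%, 7.19% and 7.43% of all genes at or below them. For Ndn, Plagl1, Meg3 and Grb10 these shares were 23.3%, 64.5%, 79.5% and 79.9%. Of the 9 members, 5 changed sign between the 2 arrays of collagen and 2 between those of PMB, and none did so for collagen over PMB, in which a dye effect shared by both coatings cancels. Across all genes the median SD of 2 arrays was 0.13 with collagen, 0.14 with PMB and 0.11 for collagen over PMB.

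Cdkn1c encodes p57, an inhibitor of cyclin-dependent kinases that stops the cell cycle in differentiating cells. Its ratios were -0.15 and -0.26 on the collagen arrays, against -0.51 and -0.40 on the PMB arrays. All 4 were below 0 and the PMB arrays were the lower, with means of -0.20 ± 0.077 for collagen and -0.46 ± 0.077 for PMB. Mest, a member of the alpha/beta-hydrolase fold family that is known for rising in expanding fat tissue, was at 0.19 and -0.18 with collagen, against -0.40 and -0.53 with PMB. The means were 0.0075 ± 0.26 for collagen, where the arrays disagreed in sign, and -0.46 ± 0.089 for PMB. Mest had the largest positive difference of the members between the coatings, 0.47 ± 0.17 for collagen over PMB, or 1.39-fold.

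Peg3, also called Pw1, encodes a large zinc finger protein that marks progenitor cells in muscle and other tissues. The probe with a value on every array gave -0.31 and 0.088 with collagen, against -0.57 and -0.38 with PMB. Its means were -0.11 ± 0.28 and -0.48 ± 0.13, and only the PMB arrays shared a sign. Plagl1, a zinc finger transcription factor known to regulate H19, Igf2 and other imprinted genes, was at -0.36 and 0.0015 with collagen, against -0.0070 and 0.27 with PMB, and both pairs spanned or touched 0. Its 2 probes disagreed in sign with collagen, at -0.45 ± 0.18 and 0.096 ± 0.33.

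Grb10 is an adaptor protein that binds the insulin and insulin-like growth factor receptors and dampens their signal. Its ratios were -0.080 and 0.10 with collagen, against 0.17 and 0.38 with PMB, with means of 0.012 ± 0.13 and 0.27 ± 0.15. Its 2 measured probes gave 0.030 ± 0.17 and 0.52 ± 0.13 with PMB, and its remaining probe had no value. Ndn encodes necdin, a protein of the MAGE family that slows proliferation and aids differentiation of nerve and muscle cells. It was at -0.59 and -0.27 with collagen, against -0.46 and 0.070 with PMB, so that the arrays of the coatings overlapped. Meg3, a maternally expressed non-coding RNA beside Dlk1, was at -0.48 and 0.12 with collagen, against 0.19 and 0.35 with PMB. Its means were -0.18 ± 0.42 and 0.27 ± 0.12, and the collagen SD was the largest of the members.

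At a lower threshold of 1.5-fold, 2 members were called lower with collagen and 2 with PMB, and both times they were Dlk1 and H19. Among all genes 7.60% were 1.5-fold lower with collagen and 4.48% with PMB. No member was 1.5-fold higher with collagen or PMB, where 6.40% and 4.32% of all genes were. Between the coatings Dlk1 was again the 1 member called lower and none was called higher, against 10.2% and 9.35% of all genes.

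**Figure D3:**
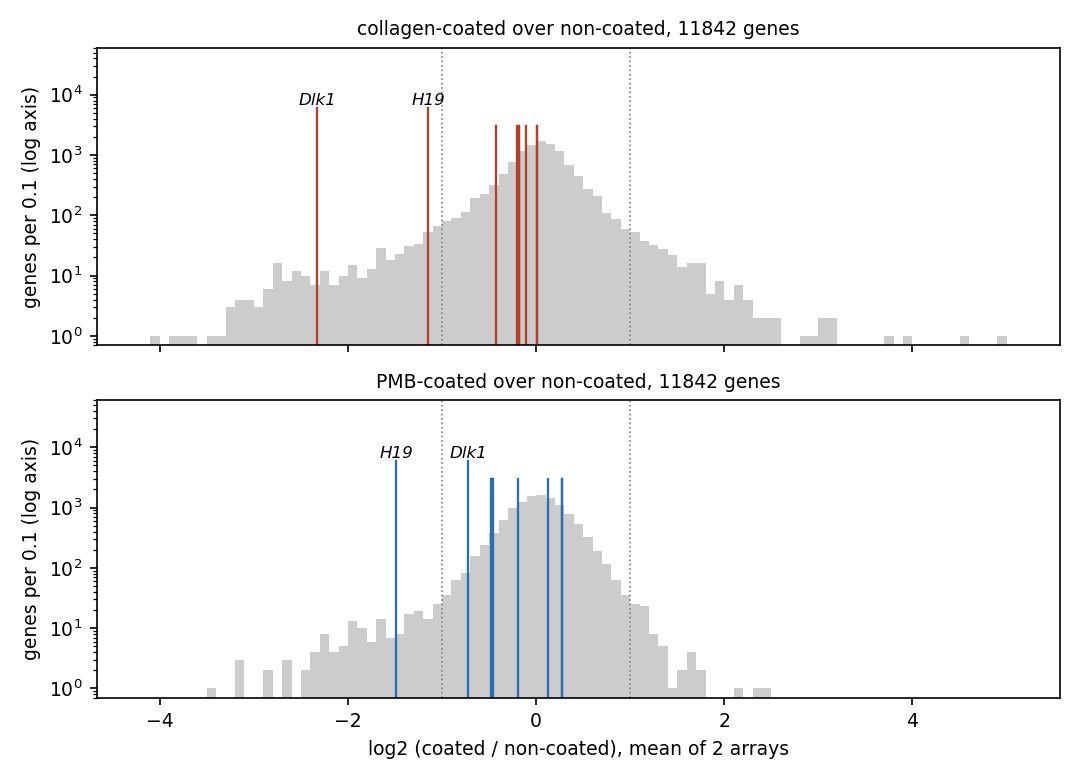
Number of genes per 0.1 of log2 ratio (vertical log axis) against the log2 ratio of coated over non-coated (horizontal axis, mean of 2 arrays), for collagen above and PMB below, with coloured lines at the 9 measured members and dotted lines at 2-fold. Dlk1 and H19 are labelled, and the other 7 members lie between the 5th and 95th percentiles of both distributions.

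Dlk1 and Meg3 are neighbours on chromosome 12 and are read from opposite parental copies, with 114 mature miRNAs of the RefSeq table between Dlk1 and Dio3. The genes of this cluster did not share a direction. Dio3, at the far end, encodes the deiodinase that inactivates thyroid hormone. It was at 1.25 and 1.15 with collagen, against -0.97 and -1.14 with PMB, so each pair agreed in sign and the coatings had opposite signs. Dio3 was called higher with collagen, at 1.20 ± 0.071, lower with PMB, at -1.06 ± 0.13, and higher with collagen than with PMB, at 2.26 ± 0.054. The non-coding RNA Rian had a ratio of -0.46 ± 0.37 with collagen, against 0.049 ± 0.31 with PMB. Mirg, another of them, had -0.29 ± 0.26 with collagen, against 0.43 ± 0.081 with PMB. The flanking genes Wdr25, Yy1 and Wars, which are not known as imprinted, lay between -0.11 and 0.23 with either coating.

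The promoter windows of Dlk1 and Meg3 are shown because these neighbours differed in their ratios. They are from RefSeq (GRCm38.p6, plus strand, 250 bases before to 50 after a start site), that of Dlk1 at chr12:109452573-109452872 and the first of 2 for Meg3 at chr12:109540746-109541045. Windows were present for 8 of the 10 members, all but H19 and Cdkn1c. The motifs searched on both strands were TATAAA, TGACGTCA, the cAMP response element, and CAGCTG, an E-box, and matches are in capitals. In the Meg3 window a forward and a reverse match of TATAAA overlap.
Dlk1: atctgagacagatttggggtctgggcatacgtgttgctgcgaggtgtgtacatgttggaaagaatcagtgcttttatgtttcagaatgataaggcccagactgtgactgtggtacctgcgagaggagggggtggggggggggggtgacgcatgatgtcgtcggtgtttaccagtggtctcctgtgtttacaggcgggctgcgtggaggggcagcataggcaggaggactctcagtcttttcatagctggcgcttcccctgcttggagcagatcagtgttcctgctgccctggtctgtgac
Meg3: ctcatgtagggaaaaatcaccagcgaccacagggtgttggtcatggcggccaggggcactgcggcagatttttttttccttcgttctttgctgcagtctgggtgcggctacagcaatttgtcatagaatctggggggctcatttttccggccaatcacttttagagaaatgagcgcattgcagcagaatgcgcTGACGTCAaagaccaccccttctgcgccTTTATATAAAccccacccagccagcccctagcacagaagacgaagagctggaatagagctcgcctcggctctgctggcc

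The Meg3 window shown held TATAAA and TGACGTCA, while its other window and the Dlk1 window held none of the 3 motifs. Of 32851 windows of this length, 13.6% held TATAAA, 1.79% held TGACGTCA and 16.3% held CAGCTG. TGACGTCA was also in the window of Peg3, and CAGCTG was in 1 window of Mest. The Dlk1 window had 9 CpG and the Meg3 window shown 13, where the median window had 7. A match is a description of these letters only.

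H19 and Igf2 are neighbours on chromosome 7 and share enhancers, H19 being read from the maternal copy and Igf2 from the paternal one. Igf2 was low with both coatings too, at -1.36 ± 0.17 with collagen and -2.24 ± 0.18 with PMB. Its 11 probe entries spanned -1.65 to -1.24 with collagen, against -3.17 to -1.90 with PMB. They carry 1 accession, and whether they are repeats of 1 oligo was not examined. Collagen over PMB was 0.87 ± 0.0095 for Igf2, in the same direction as for H19 and under 2-fold. The fast muscle troponin genes Tnnt3 and Tnni2 lie near H19 and are not imprinted. Tnnt3 had a ratio of -3.15 ± 0.11 with collagen, against -2.06 ± 0.085 with PMB, and Tnni2 one of -2.53 ± 0.025 with collagen, against -1.65 ± 0.19 with PMB. Not all neighbours of H19 were low. Mrpl23, a mitochondrial ribosome gene, had 0.18 ± 0.15 with collagen, against 0.0085 ± 0.013 with PMB, and Lsp1, a leukocyte gene, had -0.60 ± 0.056 with collagen, against -0.38 ± 0.069 with PMB.

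In the cluster of Cdkn1c, also on chromosome 7, no gene of 10 measured was called with either coating. The 10 ratios spanned -0.80 to 0.20 with collagen, against -0.46 to 0.43 with PMB. Slc22a18, a transporter gene of this cluster, was at -0.80 ± 0.29 with collagen, against 0.43 ± 0.37 with PMB, and was called lower with collagen than with PMB at -1.24 ± 0.083. Cd81, Kcnq1, Kcnq1ot1, Nap1l4, Osbpl5, Tssc4, Tspan32 and Cars did not reach 2-fold in any comparison. Peg3 was the only measured gene of its cluster. Beside Mest, the coatomer gene Copg2 was at 0.13 ± 0.015 with collagen, against -0.28 ± 0.16 with PMB, and Cep41 at 0.15 ± 0.040 and 0.031 ± 0.011. No other measured gene near Plagl1, Grb10 or Ndn reached 2-fold with either coating. Phactr2, Sf3b5, Ltv1, Ddc, Fignl1 and Peg12 lay between -0.40 and 0.47, and Snrpn, Ube3a and Atp10a, further from Ndn, between -0.39 and 0.061.

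**Figure D4:**
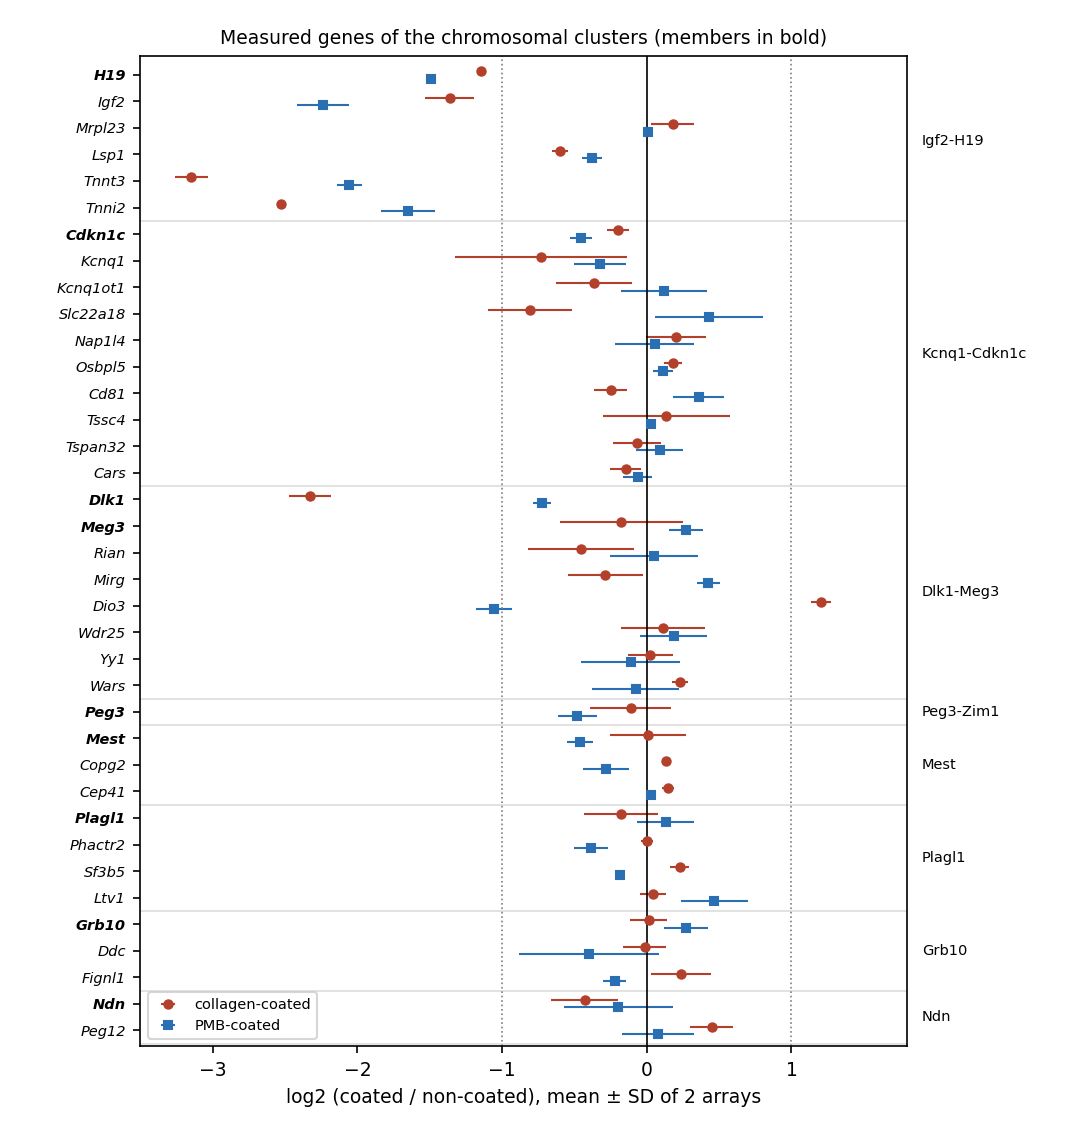
Log2 ratio of coated over non-coated (horizontal axis, mean ± SD of 2 arrays) for the measured genes of each chromosomal cluster within 1 Mb of a member, with members in bold, collagen as circles and PMB as squares. In the Dlk1 and Meg3 cluster Dlk1 and Dio3 stand apart in opposite directions with collagen, and in the H19 cluster Igf2, Tnnt3 and Tnni2 lie with H19 below -1.

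Imprinted genes outside the 10 members were mostly near 0. Of 67 listed, 42 had a value, and 1 was called higher and 3 lower with collagen, with a median of -0.042. With PMB none was higher and 2 were lower, with a median of 0.053. The genes lower with collagen were Igf2, Nnat and Gatm, and Dio3 was the higher one. Nnat, which encodes the small membrane protein neuronatin of nerve and fat cells, was at -2.28 ± 0.34 with collagen, against 0.87 ± 0.098 with PMB. Collagen over PMB was -3.14 for Nnat, a larger difference than that of any of the 9 members. Gatm, the first enzyme of creatine synthesis, was at -1.27 ± 0.088 with collagen, against -0.66 ± 0.23 with PMB. Between the coatings Dio3 and Tfpi2, an inhibitor of serine proteases, were higher with collagen, Tfpi2 at 1.32, and Nnat and Slc22a18 were lower. All 15 genes of the imprinted network linked to Plagl1 had a value, 9 of them members. Dlk1, H19 and Igf2 were called lower with collagen, H19 and Igf2 with PMB, and the list medians were -0.18 and -0.20.

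Of the insulin-like growth factor and insulin axis, in which Grb10, H19 and Igf2 take part, 14 of 20 genes had a value. With collagen 4 were called lower and none higher, Igf2, Igfbp2, Igfbp5 and Igfbp6, and the median was -0.59. With PMB 2 were lower and none higher, Igf2 and Igfbp2, and the median was 0.025. The binding protein Igfbp2 was at -2.70 ± 0.029 with collagen, against -3.14 ± 0.011 with PMB. Igfbp5 was at -2.77 ± 0.011 with collagen, against 0.84 ± 0.070 with PMB, and Igfbp6 was at -1.11 ± 0.20 with collagen. Igfbp5 and Igfbp6 were also called lower with collagen than with PMB.

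Other cell cycle inhibitors, cyclins and their kinases, which work beside Cdkn1c, gave no call in any comparison over 14 of 15 genes with a value. Their medians were -0.042 with collagen and -0.16 with PMB. Proliferation genes gave no call with collagen or PMB over 19 of 20 measured, with medians of 0.45 and -0.24. Top2a and Cdk1 were called higher with collagen than with PMB, at 1.19 and 1.15. Of 13 genes that keep or remove methylation at imprints, 11 had a value and 1 was called, Dppa3, an oocyte and embryo factor, at -1.18 ± 0.25 with collagen. Their medians were 0.15 with collagen and 0.057 with PMB.

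Macrophage, vessel, neutrophil and skin genes were checked in the same way. None of 12 macrophage genes was called with either coating, with medians of -0.19 with collagen and -0.13 with PMB. Of 12 endothelial genes, 2 were higher with collagen and none with PMB, with medians of 0.88 and 0.28. The ratios of all 12 vessel genes were above 0 with both coatings. Among all genes 44.8% were below 0 with collagen and 46.9% with PMB. Of 9 neutrophil genes, 8 were higher with collagen and 1 was lower with PMB, with medians of 1.74 and 0.034. Of 4 epidermis genes, 3 were higher with collagen and none was called with PMB, with medians of 1.37 and 0.13. The part of these lists in the values of the members was not tested.

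**Figure D5:**
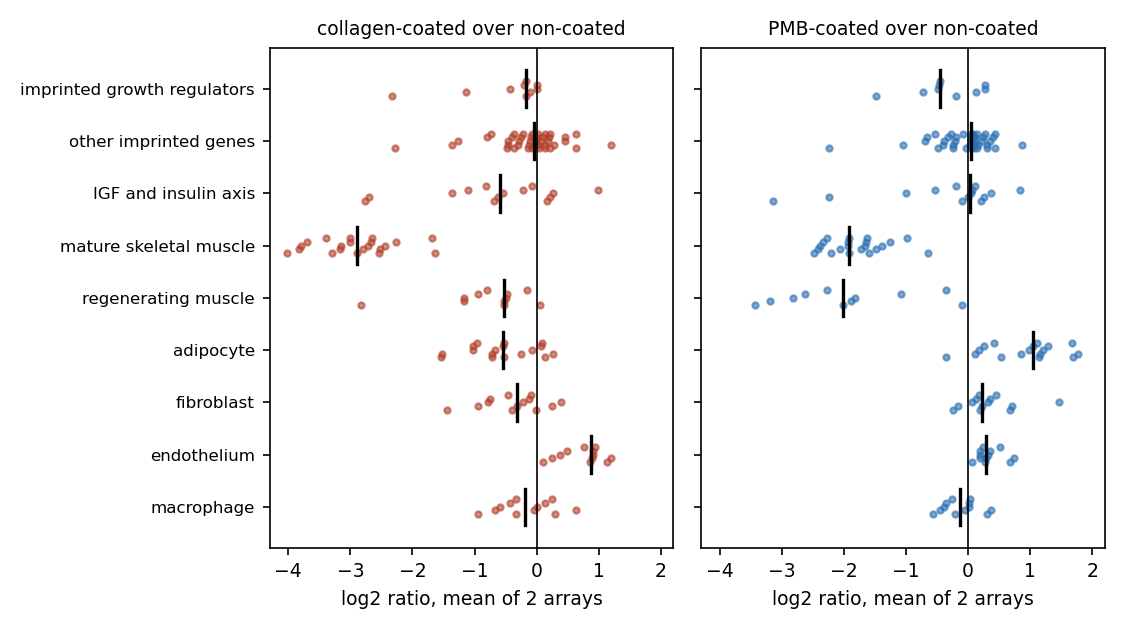
Log2 ratio of coated over non-coated (horizontal axis, mean of 2 arrays) of every measured gene (points) of the imprinted growth regulators and of 8 other lists, with the list median as a black bar, for collagen on the left and PMB on the right. The members' medians are -0.18 and -0.46, and of the lists drawn mature muscle has the lowest median with collagen and regenerating muscle the lowest with PMB.

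The genes whose 4 ratios lay closest to those of Dlk1, by the root mean square difference over the 4 arrays, were Tmem182 at 0.096, Fhl1 at 0.19, Asb11 at 0.19, Txlnb at 0.20 and Tnfaip6 at 0.20. Tmem182 was at -2.36 with collagen, against -0.66 with PMB. For H19 they were Des at 0.10, Fndc3c1 at 0.21, 4833415N18Rik at 0.22, Col8a1 at 0.24 and Dhrs7c at 0.24. Des was at -1.10 with collagen, against -1.58 with PMB. The likeness is over 2 coatings that share the non-coated extract and is a description only.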

How the data were processed

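The authors scanned the two-colour arrays (Agilent, whole mouse genome), quantified the spots in GenePix, applied LOWESS to the dyes and deposited the Cy5 to Cy3 ratio of each probe as log2. The scans were made at 3 gains, and the sources used here do not say how these were joined or why spots were left empty. By array, 52.3% to 60.5% of 43377 probes had a value. The number of arrays limits the precision.

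Per the labels the coated sample carried Cy3 in replicate 2, and the deposited columns of replicates 1 and 2 correlated at -0.79 for collagen and -0.66 for PMB over 22380 probes. The sign of replicate 2 was therefore turned. Nothing else was normalized. Symbols came from the platform annotation, updated by gene ID, and 33651 probes had 1 symbol, 56 several and 9670 none. A gene is the mean of its probes with 4 values. The 10 members had 17 probes, 13 of them with 4 values.

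The members and gene lists were chosen with earlier results of these data known. All 10 members are named, with the measured genes of their clusters and, of the lists of other imprinted, network, growth factor, cell cycle and methylation genes, those past 2-fold. Of the cell type lists only counts and medians are given, apart from Cacng1, Myh8 and the H19 neighbours Tnnt3 and Tnni2. Alternatives were the probe summary, missing spots, array centring and scaling (limma 3.58.1), the threshold and each array alone. Python 3.11.15, pandas 2.3.3 and R 4.3.3 were used.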

Additional observations from a re-analysis of the deposited data

Results flagged for a closer look

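For 7 genes near the members both collagen arrays had one sign and both PMB arrays the opposite one. Only the members and the listed genes of their clusters were searched. The share of all genes with this pattern was not counted, so the number cannot be read as high or low. Whether the coatings differed was not tested, since each scaffold came from 1 mouse, and the 2 ratios share the non-coated extract. The largest difference was that of Dio3, at 1.20 ± 0.071 with collagen and -1.06 ± 0.13 with PMB, or 2.26 for collagen over PMB. Slc22a18 stood at -0.80 ± 0.29 with collagen and 0.43 ± 0.37 with PMB, or -1.24 for collagen over PMB. The other 5 stayed under 2-fold. Mirg was at -0.29 ± 0.26 with collagen and 0.43 ± 0.081 with PMB, a difference of -0.71, and Cd81 at -0.25 ± 0.11 and 0.36 ± 0.18, a difference of -0.61. For Copg2, Sf3b5 and Fignl1 the collagen ratios were positive and the PMB ratios negative, with differences of 0.41, 0.42 and 0.46. No member met this condition.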

How the results depend on the processing

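Under 10 alternatives the counts of members called lower stayed at 2 with collagen and at 1 for collagen over PMB, and none was called higher in any comparison. With PMB the count lower was 1 throughout, except at 1.5-fold, where it was 2 because Dlk1 passes that threshold. Over these settings Dlk1 ran from -2.43 to -1.99 with collagen, from -0.83 to -0.60 with PMB and from -1.75 to -1.16 for collagen over PMB. H19 ran from -1.41 to -1.01 with collagen, from -1.78 to -1.47 with PMB and from 0.31 to 0.77 for collagen over PMB. Of the 2 probes of H19, only that at -1.41 with collagen was taken alone in a setting. The other, at -0.88, did not reach 2-fold, so the settings do not cover a collagen call of H19 on that probe. With 1 array left out, the members' median ran from -0.36 (without replicate 2) to -0.18 (without replicate 1) with collagen, from -0.46 to -0.38 with PMB and from -0.23 to -0.13 for collagen over PMB. Taking the probe with the smaller dye difference, or quantile normalization, moved 14 gene values in all by more than the SD of the 2 arrays. Several alternatives could not do so by construction and say nothing of stability: an array left out moves a mean of 2 by less than their SD, a threshold alters no gene value, and the median of at most 2 probes is their mean. Smaller moves could still change a sign. Peg3 with collagen went from -0.11 to 0.16 when probes needed a value only on the arrays of that coating. Mest and Grb10 with collagen, both near 0, also changed sign in some settings. No paired analysis was possible because the replicate numbers mark dye orientations of the same extracts and no test was run. Depth is not a property of these arrays, and spots without a value limit Zim1 most.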

Other observations

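A second probe of Peg3 had a value on 3 arrays and was left out of the gene's mean. It was at 0.57 and 0.30 with collagen, above 0 where the averaged probe was at -0.11, and at -0.52 on the 1 PMB array with a value. The 2 measured probes of Rian also disagreed with collagen, at 0.14 ± 0.33 and -1.06 ± 0.41. One probe of Igf2 stood at -3.17 with PMB, where the other 10 lay between -2.36 and -1.90.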
